A study of Arabidopsis thaliana with 6 samples.

Results

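The genes described here are 75 well-measured *Arabidopsis* genes whose signal was higher in seedlings treated with the chitin 4mer than in mock seedlings. They are 75 of 13286 genes that a probe set of the array names alone, and they were selected on the measured signal itself. A gene was chosen by 3 values: a mean over the 6 arrays of at least 0.5 times the array median, no overlap between the groups (every 4mer array above every mock array), and a geometric mean ratio of 4mer over mock of at least 1.5. The numeric rule was met by 86 one-gene probe sets, which is 1.10% of the 7841 one-gene probe sets with a mean level of at least 0.5. Of these, 11 were left out by name or family: *AR781*, *STZ*, AT4G29780, AT1G05575, AT2G25735, AT1G52100, *WRKY6*, *WRKY53*, *PUB23*, *PUB25* and *GSTU25*. Over all 22746 probe sets the same rule was met by 175, or 0.769%, of which 86 are not listed and 3 pair with several genes. Because these 3 values chose the genes, their levels and ratios are given as a description and no test of 4mer against mock was run on them.

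The 4mer group holds 3 arrays of *Arabidopsis thaliana* Col-0 whole seedlings, 14 days old, harvested 30 min after the chitin tetramer was added to 100 µg/mL, and the mock group holds 3 arrays of the same seedlings given as much water. All seedlings were wild type, were grown in liquid Murashige and Skoog medium in shaken flasks, and many seedlings of a flask went into one RNA sample. The replicates are independent biological replicates by the study's methods. Whole seedlings mix all organs, so that a change in the number of cells of a type and a change in RNA per cell cannot be told apart. Of 6 shoot and 6 root marker genes, 1 each is named on the array: the light-harvesting gene *LHCB4.2* was at 45.5 ± 2.79 times the array median in 4mer seedlings and 40.7 ± 4.25 in mock seedlings (SD, n = 3 each), and *PYK10*, a beta-glucosidase of the root, was at 54.5 ± 4.61 times the array median in 4mer seedlings and 58.8 ± 15.3 in mock seedlings (SD, n = 3 each). Both markers were far above the array median in both groups. On single arrays *PYK10* was at 55.2, 49.6 and 58.7 in 4mer seedlings, against 76.2, 47.8 and 52.4 in mock seedlings. Its mock spread came from mock replicate 1, which was the highest of all 6 arrays, while mock replicates 2 and 3 lay near the 4mer arrays. The part of this root marker in the results below was not tested.

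Chitin is a polymer of N-acetylglucosamine in fungal walls and arthropod shells. Plants perceive its soluble fragments at the cell surface through receptor kinases with LysM domains. With long fragments, calcium then enters the cytosol, MAP kinases are activated, and many stress genes are transcribed within minutes. Genes of this first wave typically encode transcription factors, kinases, calcium-binding proteins, ubiquitin ligases and small proteins without a known role. Many of them respond to touch, wounding, cold and bacterial elicitors as well. The study's paper states that chitin receptors of plant defense bind a longer oligomer more strongly than short fragments. It adds that short oligomers, unlike long chitin, did not activate the MAP kinase cascade of defense. Neither calcium entry nor MAP kinase activity was measured here, and whether the genes described here belong to this first wave was not tested.

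Levels are given as multiples of the median signal of the same array. A level can be compared between arrays for 1 probe set, but not between probe sets, which differ in hybridization. Ratios are geometric means of the 3 4mer arrays over those of the 3 mock arrays, and the standard error of a log2 ratio comes from the spread of the 3 arrays in each group. Mock replicate 1 stood apart from the other arrays: over the 14505 probe sets with a mean level of at least 0.5 its log2 levels had a correlation between 0.952 and 0.960 with those of the other arrays, where all other pairs of arrays lay between 0.984 and 0.993. Many of the 75 genes were low on this array, and ratios are therefore also given without it.

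Over the 75 genes the ratio ran from 1.501 to 2.38 with a median of 1.65. A ratio of 2 was reached by 4 of them, and 29 were below 1.6. The mean level ran from 0.508 to 22.7 with a median of 1.15, and 31 genes had a mean level under 1. The distance between the groups was small for many genes: the lowest 4mer array was at least 1.5 times the highest mock array in 7 genes, and the median of this quotient was 1.23. The median level of the 75 genes was 1.35, 1.45 and 1.46 on the 4mer arrays, against 0.723, 0.934 and 0.898 on the mock arrays. A sum of levels gives more weight to probe sets with a high signal, such as that of *atpA*, and serves only to compare arrays. Summed over all 75 genes, the level was 195.7, 195.3 and 202.5 on the 4mer arrays, against 93.0, 136.6 and 135.3 on the mock arrays. The sum was lowest on mock replicate 1, and the sums of the 3 4mer arrays lay close together. No 4mer array was the highest in most genes: replicates 1, 2 and 3 were highest in 20, 31 and 24 genes.

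**Figure D1:**
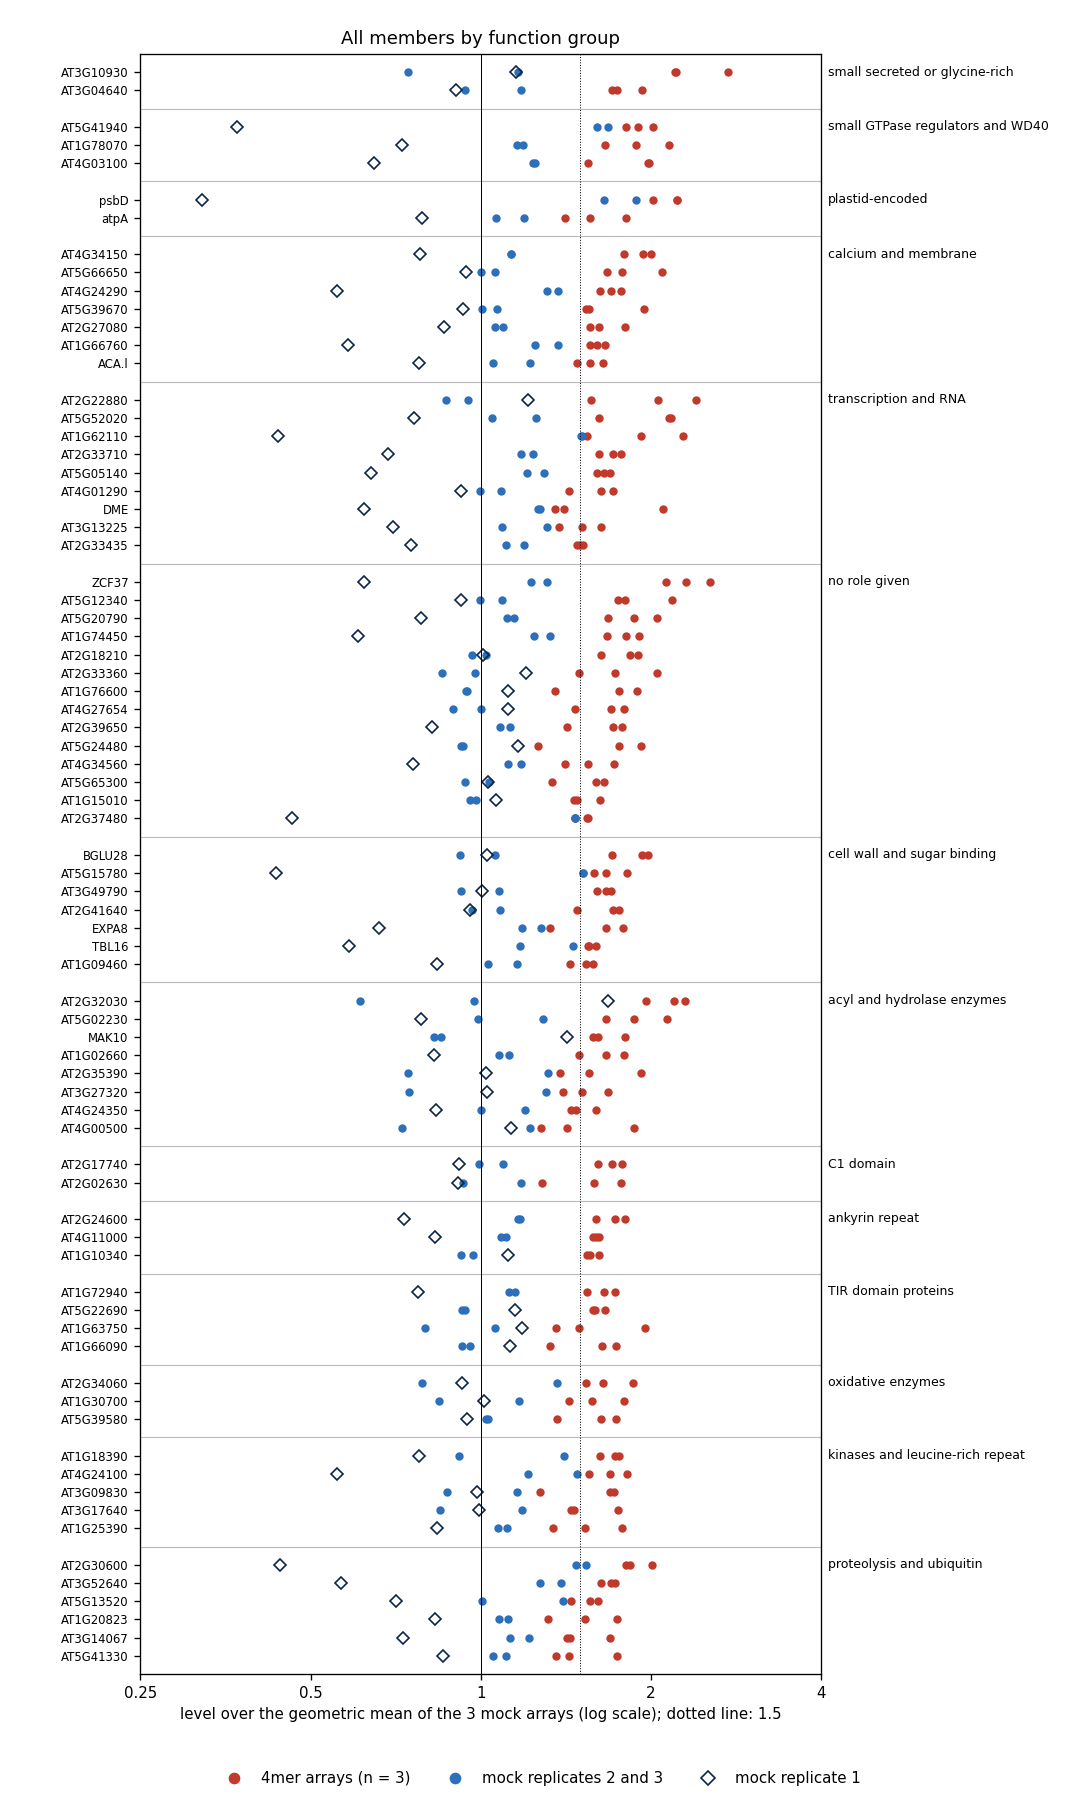
Level of each of the 75 genes on each array, divided by the geometric mean of its 3 mock arrays (log scale), with genes grouped by function. Red points are the 3 4mer arrays, blue points are mock replicates 2 and 3, and open diamonds are mock replicate 1, which was the lowest mock array in 51 genes and lay far to the left of the others in genes such as *psbD* and AT5G41940. The dotted line marks a ratio of 1.5.

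The 4 marker genes had standard errors of the log2 ratio below the median of the set, 0.21. Their gaps between the groups were wider than its median of 1.23, though a lack of overlap was part of the rule. AT3G49790, annotated as a carbohydrate-binding protein, was at 4.197, 4.28 and 4.05 in 4mer seedlings, against 2.53, 2.33 and 2.71 in mock seedlings. Its ratio was 1.66 (log2 0.73, standard error 0.07), and mock replicate 1 lay between the other mock arrays. AT5G66650, a member of the family named after the mitochondrial calcium uniporter, was at 1.94, 1.55 and 1.65 in 4mer seedlings, against 0.872, 0.927 and 0.982 in mock seedlings. Its ratio was 1.84 (log2 0.88, standard error 0.11), and its lowest 4mer array was 1.58 times its highest mock array. AT3G04640, which encodes a glycine-rich protein, was at 4.07, 4.16 and 4.61 in 4mer seedlings, against 2.16, 2.82 and 2.24 in mock seedlings. Its ratio was 1.79 (log2 0.84, standard error 0.13), and mock replicate 2 was the highest mock array. AT2G18210, a gene without a known role, was at 1.35, 1.16 and 1.31 in 4mer seedlings, against 0.719, 0.687 and 0.727 in mock seedlings. The mock arrays of AT2G18210 were nearly equal, and its ratio of 1.79 (log2 0.84, standard error 0.07) had one of the smallest standard errors of the set, whose range was 0.07 to 0.82. All 4 markers kept a ratio of at least 1.59 whichever array was left out.

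**Figure D2:**
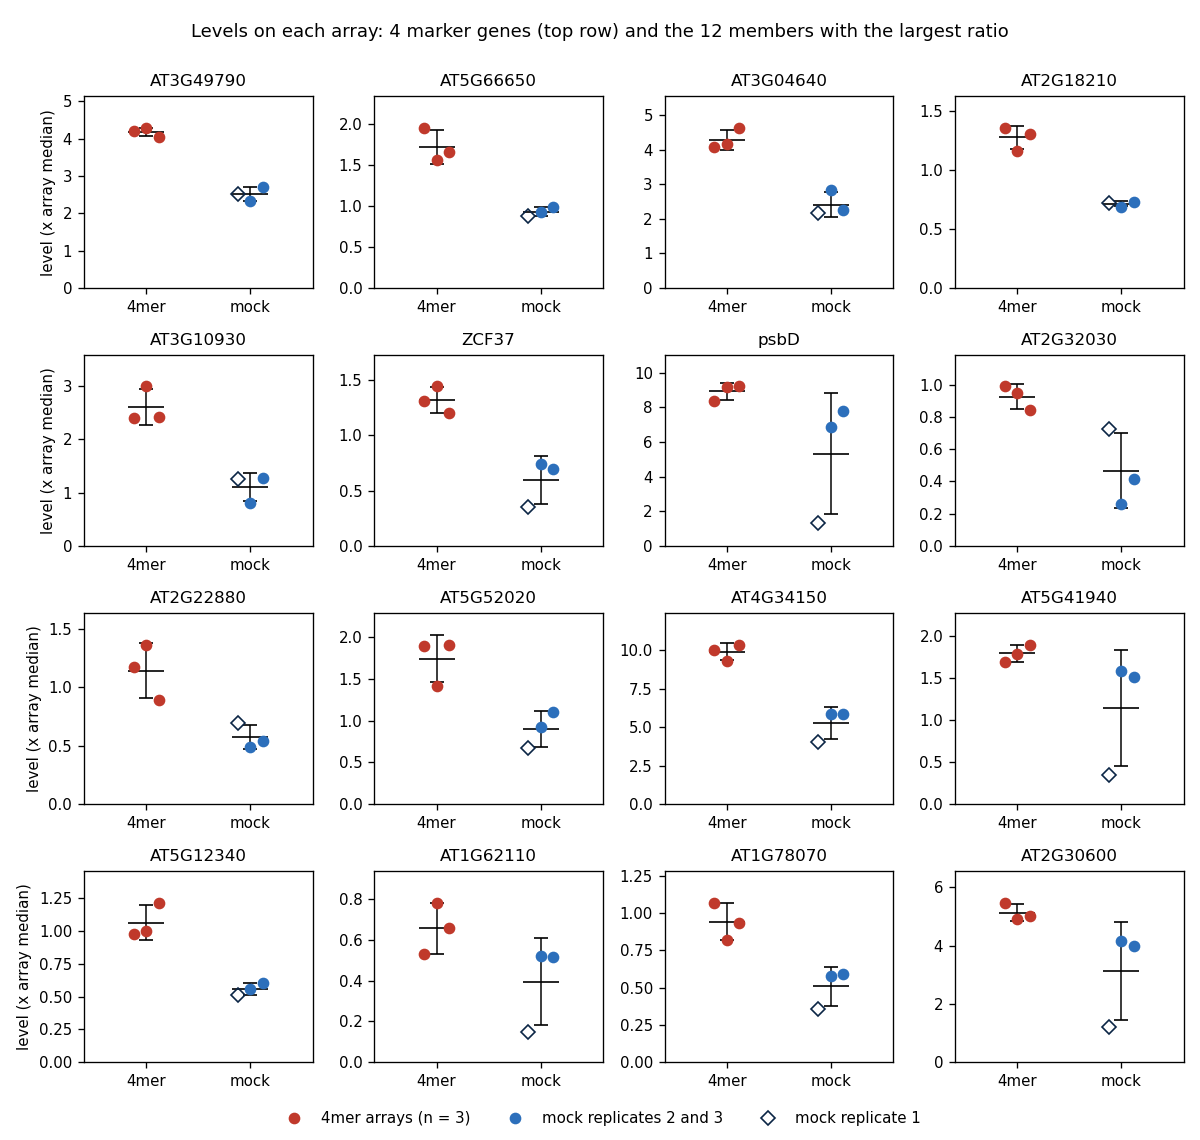
Level on each array, as multiples of the array median, for the 4 marker genes (top row) and the 12 genes with the largest ratio. Points are single arrays, with the 4mer group on the left and the mock group on the right, and bars are the mean with its SD (n = 3). In the markers no mock array lies far below the others, whereas in *psbD*, AT5G41940, AT1G62110 and AT2G30600 mock replicate 1 (open diamond) lies far below the other mock arrays.

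The largest ratio was that of AT3G10930, which encodes a small peptide of the IDA-like family, secreted signals related to the abscission peptide IDA. It was at 2.40, 2.98 and 2.41 in 4mer seedlings, against 1.26, 0.809 and 1.26 in mock seedlings. Its ratio was 2.38 (log2 1.25, standard error 0.24), and its lowest 4mer array was 1.90 times its highest mock array, the widest gap of all 75 genes. Together with the glycine-rich AT3G04640 it makes up the small secreted or glycine-rich proteins, and both kept a ratio of at least 1.5 whichever array was left out.

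Kinases and a leucine-rich repeat protein form a group of 5 genes with ratios from 1.54 to 1.70. AT1G18390, a receptor-like kinase of the LRK10-like type, was at 0.765, 0.828 and 0.814 in 4mer seedlings, against 0.366, 0.661 and 0.430 in mock seedlings. AT4G24100, a protein kinase, was at 0.868, 0.744 and 0.809 in 4mer seedlings, against 0.266, 0.709 and 0.580 in mock seedlings. In both genes mock replicate 1 was the lowest array, and without it the ratio was 1.504 for AT1G18390 and 1.26 for AT4G24100, against 1.70 and 1.68 with all arrays. AT3G09830, a receptor-like cytoplasmic kinase that acts in pattern-triggered immunity, was at 1.21, 1.61 and 1.64 in 4mer seedlings, against 0.936, 1.10 and 0.828 in mock seedlings. AT3G17640, a leucine-rich repeat protein, was at 0.887, 1.07 and 0.900 in 4mer seedlings, against 0.611, 0.522 and 0.727 in mock seedlings. The ratios of AT3G09830 and AT3G17640 hardly depended on mock replicate 1, being 1.55 and 1.55 with it and 1.54 and 1.54 without it. Both were below 1.5 when some other array was left out, with lowest ratios of 1.45 and 1.43. The remaining kinase gene, AT1G25390, had a ratio of 1.54, and 1.41 without mock replicate 1.

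Proteins with a TIR domain, the signalling module of one class of intracellular immune receptors, account for 4 of the genes. AT1G72940 was at 3.27, 3.41 and 3.04 in 4mer seedlings, against 1.53, 2.27 and 2.22 in mock seedlings, with mock replicate 1 the lowest array and a ratio of 1.64, or 1.44 without it. AT5G22690, which also has the nucleotide-binding and leucine-rich repeat parts of a full receptor, was at 1.29, 1.35 and 1.29 in 4mer seedlings, against 0.935, 0.752 and 0.763 in mock seedlings. The 4mer arrays of AT5G22690 differed by little, and its ratio was 1.61 (log2 0.69, standard error 0.10). AT1G63750, another full receptor of this class, was at 1.29, 0.896 and 0.985 in 4mer seedlings, against 0.780, 0.525 and 0.699 in mock seedlings. AT1G66090 was at 0.991, 1.23 and 1.30 in 4mer seedlings, against 0.842, 0.714 and 0.692 in mock seedlings. In AT5G22690, AT1G63750 and AT1G66090 mock replicate 1 was the highest mock array, so that their ratios were larger without it, 1.73, 1.72 and 1.66, against 1.61, 1.58 and 1.56. AT1G63750 and AT1G66090 were below 1.5 when some other array was left out, with lowest ratios of 1.41 and 1.48. Such receptors come in large families of similar sequence, and whether their probe sets bind transcripts of relatives was not tested.

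Genes of calcium binding and of the membrane form a group of 7 with ratios from 1.56 to 1.91, and in all 7 mock replicate 1 was the lowest mock array. AT4G34150, which has a C2 domain of the kind that binds lipids in a calcium-dependent way, was at 10.04, 9.30 and 10.4 in 4mer seedlings, against 4.04, 5.87 and 5.87 in mock seedlings. Its lowest 4mer array was 1.59 times its highest mock array, and its ratio was 1.91 with all arrays and 1.69 without mock replicate 1. AT5G39670, a protein with calcium-binding EF hands, was at 1.97, 2.46 and 1.95 in 4mer seedlings, against 1.178, 1.27 and 1.36 in mock seedlings. Its ratio was 1.67, and 1.61 without mock replicate 1. AT4G24290, with the MACPF domain of perforin-like proteins, was at 1.39, 1.52 and 1.46 in 4mer seedlings, against 0.477, 1.17 and 1.119 in mock seedlings. The ratio of AT4G24290 was 1.27 without mock replicate 1, against 1.70 with it. AT2G27080, of the family of NDR1- and HIN1-like membrane proteins, had a ratio of 1.66, AT1G66760, a transporter of the MATE family, had one of 1.61, and the gene listed as *ACA.l* had one of 1.56. *ACA.l* carries the synonym autoinhibited Ca2+/ATPase II, although the locus is usually placed among the phospholipid flippases. Without mock replicate 1 the ratios of these 3 genes were 1.54, 1.23 and 1.38. The ratio of the marker AT5G66650, the remaining gene of this group, was 1.79 without it. Of the 6 uniporter genes listed, only AT5G66650 and AT1G09575 are named on the array, and AT1G09575 was at 0.795, 0.816 and 0.859 in 4mer seedlings, against 1.01, 0.867 and 0.752 in mock seedlings. The groups of AT1G09575 overlapped, and its ratio was 0.945.

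Regulators of small GTPases and a WD40 protein had large ratios that rested in part on mock replicate 1. AT5G41940, with the domain of Rab GTPase-activating proteins, which act in membrane traffic, was at 1.70, 1.79 and 1.90 in 4mer seedlings, against 0.348, 1.58 and 1.51 in mock seedlings. Here mock replicates 2 and 3 lay just below the 4mer arrays, and the ratio was 1.91 with all arrays and 1.16 without mock replicate 1. AT1G78070, with WD40 repeats, was at 1.07, 0.823 and 0.936 in 4mer seedlings, against 0.360, 0.576 and 0.589 in mock seedlings. Mock replicate 1 was the lowest array of AT1G78070, and its ratio was 1.61 without that array, against 1.89 with all arrays.

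Genes of transcription and RNA number 9. AT2G22880, a VQ motif protein, a class of small partners of WRKY factors, was at 1.17, 1.37 and 0.893 in 4mer seedlings, against 0.692, 0.494 and 0.540 in mock seedlings. Its 4mer arrays were spread widely, its ratio was 1.98, and it was 2.18 without mock replicate 1, here the highest mock array. AT5G52020, a transcription factor with an AP2/ERF domain, was at 1.90, 1.42 and 1.91 in 4mer seedlings, against 0.670, 0.923 and 1.10 in mock seedlings. AT2G33710, another factor with this domain, was at 0.927, 0.895 and 0.848 in 4mer seedlings, against 0.359, 0.615 and 0.647 in mock seedlings. In both factors a lack of overlap was part of the rule. Their lowest 4mer array was at 1.29 and 1.31 times the highest mock array, where the median of the set was 1.23. The ratios of both factors without mock replicate 1 were 1.71 and 1.41, against 1.96 and 1.70 with it. AT1G62110, of the mTERF family, which acts in transcription in mitochondria and plastids, was at 0.529, 0.781 and 0.658 in 4mer seedlings, against 0.1501, 0.518 and 0.516 in mock seedlings. Its lowest 4mer array was only 1.02 times its highest mock array, and its ratio was 1.253 without mock replicate 1, against 1.89 with all arrays. The other 5 genes had ratios from 1.501 to 1.65: AT5G05140, with a domain of the elongation factor TFIIS, AT4G01290, whose protein binds the cap-binding factor eIF4E, *DME*, a DNA glycosylase that removes methylated cytosine, AT3G13225, with a WW domain, and AT2G33435, with an RNA-binding domain. Their ratios without mock replicate 1 were 1.32, 1.53, 1.252, 1.26 and 1.30. Mock replicate 1 was the lowest mock array in 8 of the 9 genes, and 3 of them, AT2G22880, AT5G52020 and AT4G01290, kept a ratio of at least 1.5 without it.

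Ankyrin repeat proteins account for 3 genes. AT2G24600 was at 2.41, 2.51 and 2.23 in 4mer seedlings, against 1.02, 1.63 and 1.62 in mock seedlings. AT4G11000 was at 0.617, 0.631 and 0.624 in 4mer seedlings, against 0.324, 0.431 and 0.423 in mock seedlings. AT1G10340 was at 0.859, 0.900 and 0.868 in 4mer seedlings, against 0.622, 0.513 and 0.540 in mock seedlings. In each of these the 4mer arrays lay close together and the lowest was at least 1.37 times the highest mock array, with ratios of 1.71, 1.602 and 1.57. With mock replicate 1 left out, these ratios were 1.46, 1.46 and 1.66. Membrane-bound relatives of this kind, such as ACD6, act in defense and salicylic acid signalling.

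A pair of genes encode proteins rich in cysteine and histidine with C1 domains. AT2G17740 was at 1.28, 1.33 and 1.21 in 4mer seedlings, against 0.686, 0.820 and 0.744 in mock seedlings, and AT2G02630 was at 0.568, 0.782 and 0.700 in 4mer seedlings, against 0.403, 0.412 and 0.521 in mock seedlings. AT2G17740 had the tighter groups, with a ratio of 1.70 (log2 0.77, standard error 0.08), while the lowest 4mer array of AT2G02630 was 1.09 times its highest mock array. The ratio of AT2G17740 without mock replicate 1 was 1.63 and that of AT2G02630 was 1.46, against 1.53 with all arrays.

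Genes of the cell wall and of sugar binding form a group of 7 with ratios from 1.52 to 1.87. *BGLU28*, a beta-glucosidase of the family that hydrolyses glucosides such as glucosinolates, was at 1.09, 1.23 and 1.26 in 4mer seedlings, against 0.654, 0.585 and 0.674 in mock seedlings. Both groups of *BGLU28* were tight, its ratio was 1.87 (log2 0.90, standard error 0.09), and leaving out any 1 array gave at least 1.79. AT5G15780, a protein with a pollen allergen and extensin domain, was at 8.22, 7.18 and 7.52 in 4mer seedlings, against 1.96, 6.85 and 6.87 in mock seedlings. Mock replicates 2 and 3 of AT5G15780 lay near the 4mer arrays, and its ratio was 1.11 without mock replicate 1, against 1.69 with all arrays. AT2G41640, a glycosyltransferase of a family that includes enzymes decorating xylan, was at 2.07, 2.40 and 2.46 in 4mer seedlings, against 1.34, 1.35 and 1.51 in mock seedlings. Its ratio was 1.65, and 1.61 without mock replicate 1. *EXPA8*, an alpha expansin, which loosens walls in growth, had a ratio of 1.58, *TBL16*, of the family of wall polysaccharide acetyltransferases, one of 1.57, and AT1G09460, with a callose-binding X8 domain, one of 1.52. The 3 ratios were 1.28, 1.199 and 1.39 without mock replicate 1, which was the lowest mock array in each of these 3 genes.

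Oxidative enzymes comprise the peroxidase genes AT2G34060 and AT5G39580, which belong to the secreted class III peroxidases, and AT1G30700, a flavin enzyme of the berberine bridge type. AT2G34060 was at 0.722, 0.774 and 0.876 in 4mer seedlings, against 0.436, 0.371 and 0.644 in mock seedlings. AT5G39580 was at 3.17, 4.04 and 3.80 in 4mer seedlings, against 2.20, 2.39 and 2.38 in mock seedlings. AT1G30700 was at 0.977, 1.115 and 0.890 in 4mer seedlings, against 0.630, 0.524 and 0.725 in mock seedlings. Their ratios were 1.68, 1.57 and 1.59, and without mock replicate 1 they were 1.61, 1.53 and 1.61. Each was below 1.5 when some other array was left out, with lowest ratios of 1.49, 1.49 and 1.46.

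Acyltransferases, hydrolases and other enzymes number 8, with ratios from 1.503 to 2.15. AT2G32030, of the GNAT family of acetyltransferases, was at 0.989, 0.947 and 0.843 in 4mer seedlings, against 0.723, 0.263 and 0.418 in mock seedlings. Mock replicate 1 was the highest mock array of AT2G32030, and its ratio was 2.79 without this array, the largest of all 75 genes, against 2.15 with it. AT5G02230, a hydrolase of the haloacid dehalogenase type, was at 0.999, 1.28 and 1.120 in 4mer seedlings, against 0.469, 0.771 and 0.593 in mock seedlings. *MAK10*, a subunit of the complex that acetylates the N-termini of proteins, was at 3.51, 3.92 and 3.45 in 4mer seedlings, against 3.10, 1.80 and 1.85 in mock seedlings. For *MAK10* too mock replicate 1 was the highest mock array, and the ratio was 1.98 without it, against 1.66 with all arrays. AT1G02660, a lipase, was at 2.82, 2.52 and 3.02 in 4mer seedlings, against 1.39, 1.82 and 1.89 in mock seedlings. AT2G35390, a phosphoribosyl diphosphate synthetase of nucleotide synthesis, AT3G27320 and AT4G00500, both with an alpha/beta hydrolase fold, and AT4G24350, of the phosphorylase superfamily, had ratios from 1.503 to 1.604. Without mock replicate 1 the ratios of these 4 genes were 1.62, 1.55, 1.598 and 1.37, that of AT5G02230 was 1.67 and that of AT1G02660 was 1.496. AT2G35390, AT3G27320 and AT4G00500 were below 1.5 when some other array was left out, with lowest ratios of 1.38, 1.32 and 1.28.

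Genes of proteolysis and of ubiquitin ligation number 6, with ratios from 1.503 to 1.89, and none kept a ratio of at least 1.5 without mock replicate 1. AT2G30600, with a BTB domain of the kind found in adaptors of ubiquitin ligases, was at 5.46, 4.91 and 4.997 in 4mer seedlings, against 1.199, 4.17 and 4.00 in mock seedlings. AT3G52640, which resembles nicastrin, the subunit of gamma-secretase, was at 1.002, 1.02 and 0.961 in 4mer seedlings, against 0.333, 0.750 and 0.816 in mock seedlings. AT5G13520, a peptidase of the M1 family, was at 1.35, 1.21 and 1.31 in 4mer seedlings, against 0.595, 1.17 and 0.844 in mock seedlings. In all 3 of these genes mock replicate 1 was the lowest array, and the ratios without it were 1.253, 1.27 and 1.29, against 1.89, 1.69 and 1.54 with all arrays. AT1G20823, a RING finger ubiquitin ligase, was at 1.28, 1.452 and 1.10 in 4mer seedlings, against 0.693, 0.934 and 0.898 in mock seedlings, and its ratio was 1.38 without mock replicate 1. The subtilase gene AT3G14067 and AT5G41330, another BTB protein, had ratios of 1.51 and 1.503 with all arrays, and of 1.29 and 1.39 without mock replicate 1.

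The 2 plastid-encoded genes of the set were *psbD*, for the D2 protein of the reaction centre of photosystem II, and *atpA*, for a subunit of the plastid ATP synthase. *psbD* was at 8.35, 9.19 and 9.20 in 4mer seedlings, against 1.33, 6.85 and 7.77 in mock seedlings. Mock replicate 1 was far below the other arrays, and the standard error of 0.82 on a log2 ratio of 1.11 was the largest of the 75 genes. *atpA* was at 27.2, 24.6 and 31.5 in 4mer seedlings, against 13.7, 20.8 and 18.6 in mock seedlings. Without mock replicate 1 the ratio was 1.22 for *psbD* and 1.41 for *atpA*, against 2.15 and 1.59 with all arrays. The arrays were labelled from a poly(T) primer, and plastid transcripts carry no stable poly(A) tail.

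For 14 genes no role is given here. *ZCF37* was at 1.31, 1.44 and 1.21 in 4mer seedlings, against 0.352, 0.743 and 0.697 in mock seedlings. Its ratio was 2.32 with all arrays, second only to that of AT3G10930, and 1.83 without mock replicate 1. AT5G12340 was at 0.975, 1.001 and 1.21 in 4mer seedlings, against 0.513, 0.554 and 0.606 in mock seedlings, AT5G20790 was at 3.88, 4.74 and 4.30 in 4mer seedlings, against 1.81, 2.64 and 2.57 in mock seedlings, and AT1G74450 was at 8.39, 7.78 and 8.84 in 4mer seedlings, against 2.81, 6.16 and 5.76 in mock seedlings. AT5G12340 had mock arrays close together and a ratio of 1.90, that of AT5G20790 was 1.86, and that of AT1G74450 was 1.79 with all arrays and 1.397 without mock replicate 1. Besides the marker AT2G18210, the others are AT2G33360, AT1G76600, AT4G27654, AT2G39650, AT5G24480, AT4G34560, AT5G65300, AT1G15010 and AT2G37480, with ratios from 1.52 to 1.74. Of the 14 genes, 10 kept a ratio of at least 1.5 without mock replicate 1, and the exceptions were AT1G74450, AT2G39650 (1.48), AT4G34560 (1.36) and AT2G37480 (1.03). Whichever array was left out, 7 of the 14 kept such a ratio.

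Mock replicate 1 was the lowest mock array in 51 of the 75 genes, or 68%, where it was the lowest in 37.9% of all one-gene probe sets with a mean level of at least 0.5. It lay below the mean of mock replicates 2 and 3 by more than 1.5-fold in 26 genes, or 34.7%, against 7.04% of those probe sets. The rule favours genes with a low mock array, so these shares describe what it selected. Without mock replicate 1 the ratio was still at least 1.5 in 40 of the 75 genes, where 1.03% of the same probe sets reached 1.5. The rule had used the remaining arrays too, so a larger share among the 75 genes follows from their choice. The other 35 genes are by construction genes in which mock replicate 1 lay below the level of the other mock arrays. Summed over the 40 genes, the level was 82.6, 89.4 and 86.5 on the 4mer arrays, against 48.6, 50.6 and 51.5 on the mock arrays. Summed over the other 35 genes, it was 113.05, 105.9 and 116.0 on the 4mer arrays, against 44.3, 86.0 and 83.8 on the mock arrays. The low sum of mock replicate 1 in the 35 genes follows from how they were divided, and these sums only give its size. What set mock replicate 1 apart was not tested.

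**Figure D3:**
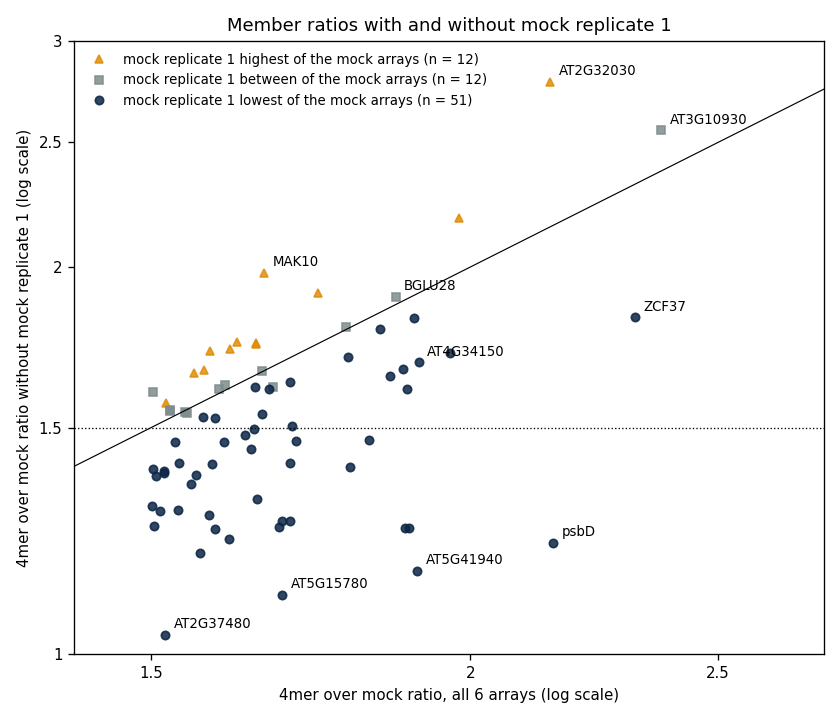
Ratio of 4mer over mock for each of the 75 genes with all 6 arrays (horizontal axis, log scale) and without mock replicate 1 (vertical axis, log scale), with the line of equal ratios and a dotted line at 1.5. Circles below the dotted line are the 35 genes whose ratio was under 1.5 without mock replicate 1, a division that itself requires a low mock replicate 1. Triangles and squares mark genes in which that array was not the lowest mock array.

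Applied to the 5 arrays without mock replicate 1, the whole rule was met by 1.01% of 7803 one-gene probe sets. After the same genes and families had been left out, 70 genes met it, of which 40 were among the 75 and 30 were not. Leaving out any other array left the ratio at 1.5 or more in 66 to 72 of the 75 genes. The same arrays had chosen the genes, and shares over all probe sets are not given, so this count and the next only describe them. With each of the 6 arrays left out in turn, 27 genes kept a ratio of at least 1.5 every time. These are the markers AT3G49790, AT5G66650, AT3G04640 and AT2G18210, the peptide gene AT3G10930, *ZCF37*, *BGLU28*, *MAK10*, the C2 domain gene AT4G34150, the EF-hand gene AT5G39670, AT2G27080, AT2G32030, AT5G02230, AT2G22880, AT5G52020, AT4G01290, AT1G78070, AT1G18390, AT2G17740, AT2G41640, AT5G22690, AT1G10340, AT5G12340, AT5G20790, AT2G33360, AT1G76600 and AT4G27654. They come from 11 of the 14 function groups, and the oxidative enzymes, the genes of proteolysis and ubiquitin and the plastid genes have none. For AT4G01290 and AT1G18390 this holds for 1 probe set only, since their other probe sets had ratios of 0.991 and 1.119.

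Another one-gene probe set was available for 6 of the 75 genes, measured on the same arrays. The rule screened these 7 probe sets too and they did not meet it, so their values are a description and not an independent check. In none of them was every 4mer array above every mock array or the ratio at least 1.5. In each of the 6 genes the probe set that met the rule had the lower mean level. Those levels were 0.585 against 4.22 for AT4G01290 and 0.644 against 2.89 for AT1G18390. The other probe set of AT1G18390 was at 2.93, 3.05 and 3.17 in 4mer seedlings, against 2.41, 2.81 and 2.99 in mock seedlings. That of AT3G52640 was at 3.14, 2.97 and 2.98 in 4mer seedlings, against 3.15, 3.25 and 3.17 in mock seedlings, with every array of the 4mer group below the mock group, opposite to the probe set that met the rule. That of AT4G01290 was at 3.93, 3.82 and 4.88 in 4mer seedlings, against 4.51, 4.16 and 4.01 in mock seedlings. Their ratios were 1.119, 0.949 and 0.991, against 1.70, 1.69 and 1.59 for the probe sets that met the rule. The other probe set of AT2G30600 was at 8.81, 8.24 and 8.88 in 4mer seedlings, against 9.89, 7.27 and 7.35 in mock seedlings. On it mock replicate 1 was the highest of all 6 arrays, while on the probe set that met the rule it was the lowest, and the ratio was 1.07, against 1.89. The other probe set of AT2G37480 was at 5.39, 5.09 and 4.82 in 4mer seedlings, against 3.54, 5.36 and 5.23 in mock seedlings, with mock replicate 1 the lowest array on both probe sets and a ratio of 1.10, against 1.52. Both other probe sets of *DME*, with ratios of 1.03 and 1.02 against 1.59, had overlapping groups. Which stretch of the transcript each probe set binds was not examined here.

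**Figure D4:**
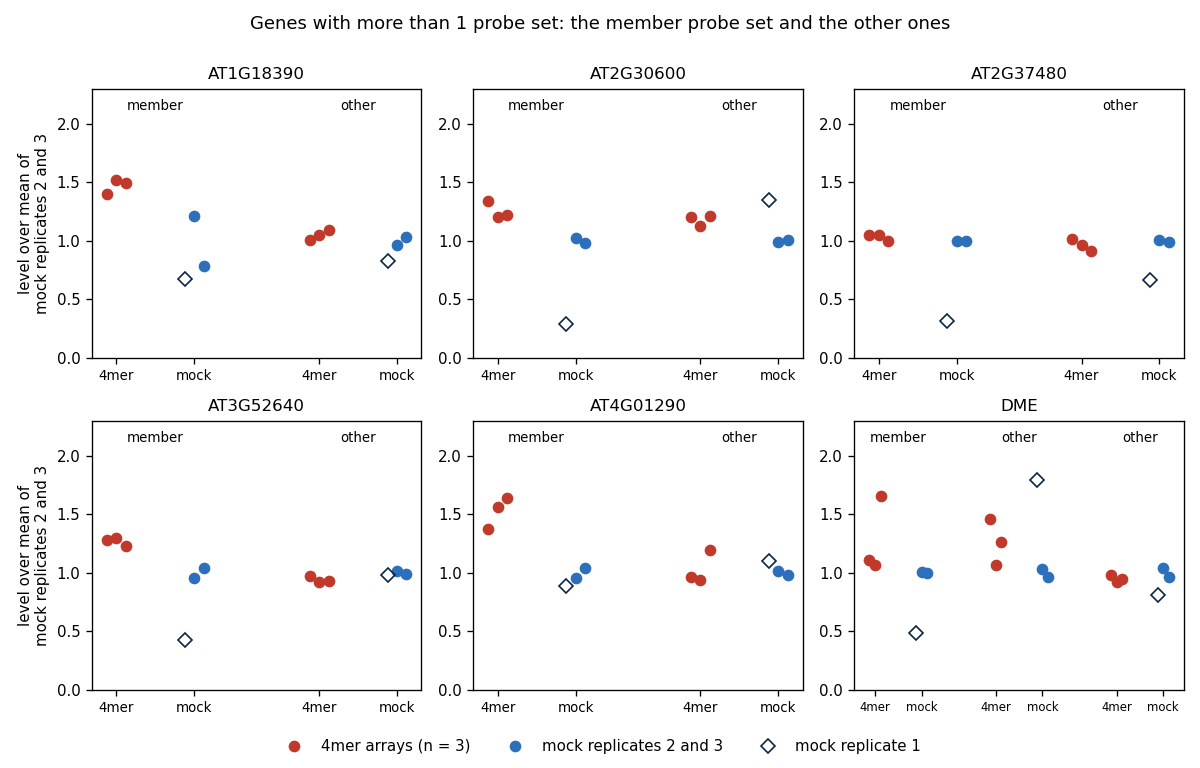
Levels of the 6 genes that have more than 1 probe set, each divided by the mean of mock replicates 2 and 3 of the same probe set, with the 4mer group left of the mock group. On the member probe sets, on the left of each panel, all 4mer arrays (red) lie above all mock arrays, and on the other probe sets the groups overlap, except for AT3G52640, whose 4mer arrays all lie below its mock arrays.

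The thresholds pass through a continuous range. Just inside the ratio were AT2G33435 (1.501), AT5G41330 (1.503) and AT4G00500 (1.503), and just outside were the plastid gene *ndhD* (1.498), AT2G47560 (1.497) and AT5G62550 (1.493). *ndhD* was at 23.8, 25.3 and 26.6 in 4mer seedlings, against 8.77, 23.2 and 23.5 in mock seedlings, with mock replicate 1 low as in *psbD*. Just inside the level were AT4G11000, AT1G62110 and AT2G33360, with means of 0.508, 0.525 and 0.562, and just outside were AT2G25460 (0.491), AT1G10980 (0.480) and AT5G52050 (0.467). AT2G25460 had a ratio of 2.05 and AT5G52050 one of 2.95. By overlap, AT2G37480 was just inside, with its lowest 4mer array at 3.992 and its highest mock array at 3.985. AT5G24690 was just outside, with its lowest 4mer array at 5.062 and its highest mock array at 5.102. Without the genes left out by name, 579 one-gene probe sets met the level and had no overlap but had a ratio from 1 to 1.5, 194 fell short on the level alone, and 43 on the overlap alone.

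Among the 11 genes left out by name, mock replicate 1 was the lowest mock array in 3, against 51 of the 75 genes described here. Without it, 9 of the 11 kept a ratio of at least 1.5, against 40 of the 75. The mirrored rule, for genes lower with the 4mer, was met by 71 one-gene probe sets, or 0.905% of the 7841, and 37 of them, or 52.1%, kept a 1.5-fold lower level without mock replicate 1. No test of these differences was run, since all of these genes were chosen by the same contrast.

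Of the 75 genes, 18, 19, 9, 10 and 17 lie on chromosomes 1, 2, 3, 4 and 5 and 2 in the plastid genome, and no 2 of them are direct neighbours. The closest pairs in the order of protein-coding genes were AT4G24290 and AT4G24350 with 5 genes between them, *TBL16* and AT5G20790 with 6, AT2G33360 and AT2G33435 with 7, AT5G39580 and AT5G39670 with 9, and the plastid genes *atpA* and *psbD* with 9.

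Few genes of related lists could be looked up, so the lists do not show how related genes responded. A gene counts as named on the array only where the annotation used pairs it with a one-gene probe set, and 8730 probe sets are not listed there. Several lists were matched by symbol and miss genes known by locus tag alone. Among those missed are the VQ gene AT2G22880 and the AP2/ERF genes AT5G52020 and AT2G33710 of the set. Over 13286 genes with 1 probe set each, the 4mer arrays were all above the mock arrays in 7.20% and all below them in 12.2%, and the median log2 ratio was -0.02. Of 9 xyloglucan endotransglucosylase genes, which remodel the wall, *XTH18* had no overlap and was at 5.80, 5.66 and 5.99 in 4mer seedlings, against 5.37, 4.55 and 4.91 in mock seedlings, while *XTH33*, also without overlap, was lower at 1.396, 1.30 and 1.30 in 4mer seedlings, against 1.68, 1.84 and 1.93 in mock seedlings. The median log2 ratio of these 9 genes was -0.05. Of 6 measured genes that respond to mitochondrial stress, 1 had no overlap, AT5G51440, which encodes a small heat shock protein of mitochondria, and it was lower with the 4mer at 0.414, 0.459 and 0.321 in 4mer seedlings, against 0.603, 0.606 and 0.538 in mock seedlings. The median log2 ratio of the 6 was -0.17, and none of them is among the 75 genes. Where in the cell the protein of AT5G66650 lies was not examined. Of 3 RING finger genes that carry an ATL symbol, a list that holds no gene known by its locus tag alone such as AT1G20823, 1 was lower without overlap, *ATL8*, at 1.32, 1.32 and 1.43 in 4mer seedlings, against 1.53, 1.452 and 1.452 in mock seedlings, and the median log2 ratio of the 3 was 0.06. *ORA47* and *TINY2*, the 2 measured genes of the AP2/ERF class that carry a symbol of the list, overlapped between the groups, with ratios of 1.36 and 0.790. Of 12 listed zinc finger genes, *STZ* and AT2G28200 are named on the array, and AT2G28200 was at 2.63, 2.82 and 2.43 in 4mer seedlings, against 2.56, 2.58 and 2.44 in mock seedlings, with overlapping groups and a ratio of 1.04. No gene of the lists of 4 touch genes and 2 CCR4-associated deadenylases, and no symbol of the lists of VQ motif proteins, calcium pumps and exchangers, and exocyst and syntaxin proteins, is named by a one-gene probe set.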

How the data were processed

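Affymetrix ATH1 arrays measured RNA of whole seedlings in 3 4mer and 3 mock samples, labelled from a poly(T) primer. The deposited values are linear intensity values, 1 signal per probe set, which the authors made with MicroArray Suite 5.0. The trimmed mean of the arrays (2% off each end) was nearly equal, 496.8 to 497.4, so the arrays had been scaled to a common target before deposit. The number of arrays limits the precision.

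Here each signal was set to at least 0.01 and divided by the median of its array (197.9 to 211.6), with Python 3.11.15, pandas 2.3.3 and numpy 2.4.6, and figures were drawn with matplotlib 3.10.9. Genes were named through the platform's annotation table and the TAIR10.1 gene table: 13513 probe sets name 1 gene, 503 name several and 8730 are not listed. Where a gene had several probe sets, each was kept apart for the 75 genes, and the lists took the one with the highest mean level. The steps were tested on simulated data in which all arrays had the same spread. No simulated array stood apart as mock replicate 1 does, so that test does not cover such a case. No test of 4mer against mock was run, since the rule used that contrast. The sample titles do not say whether equal replicate numbers mark pairs, and the main ratios treat the samples as unpaired. The deviations of same-numbered arrays from their group means had correlations of -0.0431, -0.0351 and -0.0344. Those of differently numbered arrays ran from -0.0234 to 0.0603. With 3 arrays a group, such values cannot show whether the samples were paired. The genes, their thresholds, the function groups and the lists were chosen with earlier results of these data known. Values on every array are given for the 4 markers, the 12 largest ratios and up to 4 genes of each function group in order of ratio. Roles are general background knowledge, not measurements. Promoter and protein sequences were not used here. Alternatives tried were other scalings, floors and thresholds, group medians, a replicate block and leaving out each array. The text leaves out the account of 1 of the 75 genes, which is not reported here, although the gene is part of the counts, sums, ranges and plots.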

Additional observations from a re-analysis of the deposited data

How the results depend on the processing

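The ratio of all 75 genes stayed above 1 under every alternative tried, which the choice of genes without overlap fixes for medians, the replicate block and each array left out, so it is no sign of stability. The count of genes that met the rule, 75, was 82 with quantile scaling, 100.0 with no scaling, 110.0 with a level of at least 0.25, 44 with a level of at least 1, 52 with group medians, 4 with a ratio of at least 2 and 86 with a replicate block. Of the 75 genes, 41 were among the 52 found with group medians. All 75 were among the 86 found with a replicate block. Over all probe sets, where 175 met the rule, 18 had a ratio of at least 2. By ratio alone, 41 of the 75 genes reached 1.5 with group medians, and the lowest ratio was 1.05. The ratio of the replicate block was the median of the ratios of same-numbered arrays. It reached 1.5 in 49 of the 75 genes, and its lowest value was also 1.05. The ratio of AT3G10930 was 1.91 with group medians and also with the replicate block, and that of AT5G66650 was 1.68 with the replicate block. With group medians the ratio was 1.11 for *DME*, 1.34 for *psbD* and 1.19 for AT5G41940. Leaving out 1 array at a time gave 70 to 141 genes (fewest without mock replicate 1, most without mock replicate 2, and 129 without mock replicate 3) and 156 to 279 probe sets. Of the 75 genes, 40 were in the set found without mock replicate 1, so that array decides 35 of them. With 5 arrays the overlap rule is easier to meet by construction. The planned search for motifs in promoters was not run. Precision is limited by 3 arrays a group, and 31 genes had mean levels under 1.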
